A study of Mus musculus with 2 samples.

Results

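The 9 genes described here, S100a1, S100a4, S100a6, S100a8, S100a9, S100a10, S100a11, S100a13 and S100a16, are members of the S100 family. They were taken from the gene tables by symbol, and they are 9 of the 17 S100 family genes among the 32285 genes counted. The data are single-cell counts of unique molecular identifiers (UMIs, which tag each captured RNA molecule) from 2 pooled libraries of mouse tissue. The colotomy library came from mice whose colon had been cut open, on postoperative day 14, and the sham library from mice that had a sham operation, on the same day. Both groups carried the genotype label B6/C57 and were aged 8 to 12 weeks, and no transgene, deletion or drug is named for either. Bowel cells and cells of the mesenteric fat that runs beside it were stained with hashtag antibodies and pooled in each library. How many mice went into a library is not given in the sources used here. Each group is 1 library without a replicate, and the differences below are sizes between 2 libraries, with intervals that cover counting error only.

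S100 proteins are small calcium-binding proteins that pair into dimers, each chain with a pair of EF-hand motifs, and bind partner proteins when calcium in the cell is high. S100A8 and S100A9 form calprotectin, which fills the cytosol of neutrophils, acts as an alarm signal through TLR4 and RAGE once released, and is measured in stool as a sign of bowel inflammation. S100A4, S100A6, S100A10 and S100A11 work mainly inside cells on the cytoskeleton and on membranes, with myosin and annexins among their partners. S100A4, also called fibroblast-specific protein, is made by leukocytes as well.

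The family is arranged as a gene cluster. In the GENCODE vM21 annotation of GRCm38 all 9 members lie on chromosome 3 and each is protein-coding. S100a1, S100a13, S100a16, S100a4, S100a6, S100a8 and S100a9 occupy chr3:90511034-90695721, a stretch of 184688 bases, and S100a11 and S100a10 lie at chr3:93520488-93564643, within 44156 bases. S100a8 (chr3:90668978-90670035, + strand) and S100a9 (chr3:90692632-90695721, − strand) face each other across 22596 bases. S100a1 (chr3:90511034-90514392, − strand) and S100a13 (chr3:90514435-90524581, + strand) start from opposite strands with 42 bases between them. S100a4 (chr3:90603771-90606045, + strand) overlaps the gene model Gm42674 on the same strand, so that its counts depend on how reads of the shared stretch were assigned. The other members are S100a16 (chr3:90537254-90543151), S100a6 (chr3:90612882-90624181), S100a11 (chr3:93520488-93526287) and S100a10 (chr3:93555080-93564643), all on the + strand.

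The promoters of S100a8, S100a9, S100a4 and S100a11 are shown because these genes had their highest levels in neutrophil-like or macrophage-related cells, described below. Each sequence is the RefSeq promoter window on GRCm38.p6, 250 bases before to 50 bases after the annotated start, written 5′ to 3′ on the gene's own strand. It covers chr3:90668821-90669120 for S100a8 (+ strand), chr3:90695672-90695971 for S100a9 (− strand), chr3:90603520-90603819 for S100a4 (+ strand) and chr3:93520246-93520545 for S100a11 (+ strand). Capitals mark a match to letters bound by transcription factors: GAGGAAGT for PU.1, here as its reverse complement in S100a8 (first base 79 of the window) and S100a4 (first base 268), and TTGCNNAA for C/EBP in S100a9 (first base 15). The S100a11 window held neither of these, and its capitals mark TGANTCA, the letters of AP-1 (first bases 115 and 213).
S100a8 promoter: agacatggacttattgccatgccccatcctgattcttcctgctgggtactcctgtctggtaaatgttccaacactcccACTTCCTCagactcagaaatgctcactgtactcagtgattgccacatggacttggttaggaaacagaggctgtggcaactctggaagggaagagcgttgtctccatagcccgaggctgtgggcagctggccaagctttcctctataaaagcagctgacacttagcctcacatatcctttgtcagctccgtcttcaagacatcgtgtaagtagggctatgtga
S100a9 promoter: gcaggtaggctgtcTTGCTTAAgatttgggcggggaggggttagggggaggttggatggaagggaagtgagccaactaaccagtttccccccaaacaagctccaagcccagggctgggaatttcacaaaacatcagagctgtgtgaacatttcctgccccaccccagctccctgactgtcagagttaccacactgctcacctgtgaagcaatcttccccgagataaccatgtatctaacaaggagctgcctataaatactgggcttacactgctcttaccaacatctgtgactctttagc
S100a4 promoter: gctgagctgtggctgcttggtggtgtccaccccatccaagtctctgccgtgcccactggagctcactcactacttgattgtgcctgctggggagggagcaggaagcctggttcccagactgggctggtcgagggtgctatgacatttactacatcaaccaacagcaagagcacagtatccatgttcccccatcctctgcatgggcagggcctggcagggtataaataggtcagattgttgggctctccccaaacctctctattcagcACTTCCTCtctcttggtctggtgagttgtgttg
S100a11 promoter: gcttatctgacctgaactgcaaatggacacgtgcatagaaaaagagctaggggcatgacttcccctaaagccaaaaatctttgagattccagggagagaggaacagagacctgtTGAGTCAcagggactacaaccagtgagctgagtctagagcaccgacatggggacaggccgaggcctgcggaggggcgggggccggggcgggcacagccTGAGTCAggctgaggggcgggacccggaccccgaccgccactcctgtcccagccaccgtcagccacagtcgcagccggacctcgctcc
Both strands were searched in 32851 RefSeq promoter windows, of which 3.20% held GAGGAAGT, 10.8% held TTGCNNAA and 7.81% held TGANTCA. Among the 9 windows of 8 members, 2 held GAGGAAGT, 1 held TTGCNNAA and 2 held TGANTCA, those of S100a16 and S100a11. A match is a description of these letters and not a site of binding. No window of S100a10 was used here.

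The 2 libraries differed in more than the operation. The colotomy library gave 9246 kept cells of 15547 barcodes with a median of 778.5 UMIs, and the sham library 42143 of 44814 with a median of 1328. The kept cells held 8728608 gene UMIs in the colotomy library and 70442705 in the sham library. Mitochondrial genes took 7.94% of those UMIs in the colotomy library and 6.68% in the sham library. Xist, which is made in female cells, stood at 394 CPM in the colotomy library and 0.724 CPM in the sham library. CPM gives the UMIs of a gene scaled to a common total of UMIs, as in bulk RNA work. The 4 Y-linked genes read stood together at 156 CPM in colotomy and 210.1 CPM in sham cells, so the sex mix of the cells cannot be told apart from the operation. Markers of the labelled bowel were present (Lgals4 at 659 CPM in colotomy and 304 CPM in sham cells). The adipocyte genes Adipoq (2.52 CPM in colotomy and 0.696 CPM in sham cells) and Plin1 (2.41 CPM in colotomy and 0.468 CPM in sham cells) were close to 0. Kept cells of both libraries shared 108 barcode sequences. Cells were put into classes by markers that hold no S100 gene, from clusters made without S100 genes, and 21 of 26 clusters took a name. The 9 classes with at least 100 cells in each library were compared, and the 5 unnamed clusters are called by their leading genes.

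Over all kept cells, every member had a higher level in the colotomy library. S100a6 stood at 1825 CPM in the colotomy library and 939 CPM in the sham library. S100a10 had 499.7 CPM in colotomy and 349.7 CPM in sham cells, and S100a11 had 459 CPM in colotomy and 280.2 CPM in sham cells. S100a13 had 205 CPM in colotomy and 158 CPM in sham cells, and S100a4 had 165 CPM in colotomy and 117 CPM in sham cells. The gaps were wider for S100a16 (263 CPM in colotomy and 69.7 CPM in sham cells), S100a8 (977 CPM in colotomy and 34.3 CPM in sham cells) and S100a9 (1568 CPM in colotomy and 67.2 CPM in sham cells). S100a1 had 126 CPM in colotomy and 59.1 CPM in sham cells. These totals mix the levels inside cells with the make-up of the libraries. Fibroblast-like cells were 38.1% of colotomy and 12.0% of sham cells, neutrophil-like cells 5.80% of colotomy and 0.263% of sham cells, and B cell-like cells, which hold few S100 RNAs, 1.08% of colotomy and 30.2% of sham cells. S100a6 gave 30.0% of the S100 family UMIs of the colotomy library and 45.3% of those of the sham library, while S100a8 and S100a9 gave 16% and 25.8% in the colotomy library against 1.65% and 3.24% in the sham library. The levels below are therefore given within classes.

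**Figure D1:**
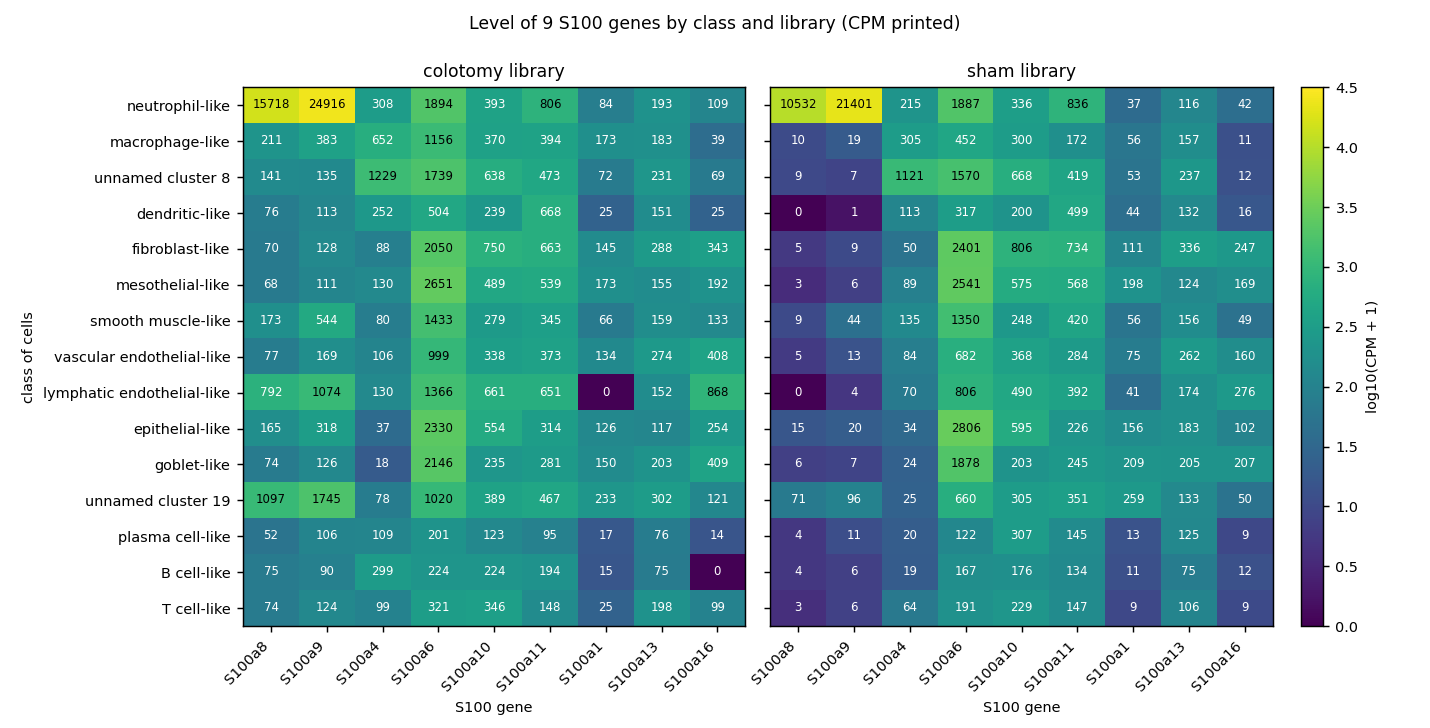
Level of the 9 S100 genes (columns) in 15 classes of cells (rows) of the colotomy library (left) and the sham library (right), as CPM of the UMIs summed over a class, printed in each cell and coloured as log10(CPM + 1). S100a8 and S100a9 stand at 15717.5 and 24916.5 CPM in colotomy and at 10532.5 and 21401 CPM in sham neutrophil-like cells, S100a6 stands at 1878 CPM or more in neutrophil-like, fibroblast-like, mesothelial-like, epithelial-like and goblet-like cells of both libraries, and plasma cell-like and B cell-like cells are low in most members.

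S100a8 and S100a9, the calprotectin genes, had their highest level in neutrophil-like cells of both libraries, and no other class came near. S100a8 stood at 15717.5 CPM in the 536 colotomy cells (7511 UMIs, 95% Poisson interval 15364 to 16077) and 10532.5 CPM in the 111 sham cells (2004 UMIs, 10076 to 11004), a ratio of 1.49-fold (log2 0.58, 0.51 to 0.65) that lies just under the 1.5-fold used to call a difference. S100a9 stood at 24916.5 CPM in colotomy and 21401 CPM in sham cells (log2 0.22, 0.17 to 0.27). The neutrophil-like class held 88.1% of all S100a8 UMIs of the colotomy library and 82.9% of those of the sham library, and of S100a9 UMIs 87.0% in the colotomy and 86.1% in the sham library. Per S100a9 UMI there were 0.631 S100a8 UMIs in colotomy neutrophil-like cells (0.613 to 0.649) and 0.492 in sham ones (0.466 to 0.519), intervals that do not overlap. When only cells with at least 1000 UMIs and 500 genes were used, the ratio was 0.653 in 54 colotomy cells and 0.488 in 57 sham cells. After thinning to 1000 UMIs per cell, 84.6% of 143 colotomy cells and 70.3% of 74 sham cells had an S100a8 UMI. The shares over all cells of the class, which differ in depth, were 69.4% of colotomy and 81.1% of sham cells.

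The calprotectin level followed the granule genes within the neutrophil-like class. In cells with a UMI of Ngp, Camp or Ltf, which encode secondary granule proteins laid down in the bone marrow, S100a8 stood at 35904 CPM in 169 colotomy cells and 24088 CPM in 24 sham cells. Cells with none of these but a UMI of Retnlg, Csf3r or Cxcr2, genes of mature neutrophils, had 6531 CPM of S100a8 in 185 colotomy cells and 5437 CPM in 56 sham cells. Those with none of the 6 genes had 1233 CPM in 182 colotomy cells and 1703 CPM in 31 sham cells. S100a9 followed the same order, with 55171, 12197 and 2005 CPM in colotomy cells and 47641, 11975 and 3277 CPM in sham cells. The first of these strata was 169 of 536 colotomy and 24 of 111 sham cells, so the mix of strata moves with the class level. The cells were split by genes read from their own UMIs, and a deeper cell is more likely to show one. The third stratum of the colotomy library was near the level of its barcodes under 500 UMIs (1108 CPM of S100a8 and 1962 CPM of S100a9). At a lower clustering resolution of 0.5 the neutrophil-like class held 229 colotomy and 93 sham cells. Whether cells of the third stratum are neutrophils was not tested.

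S100a6 and S100a11 had smaller steps over the strata, and in the colotomy library not the same order. S100a6 stood at 1738, 2064 and 1892 CPM over the same 3 strata in colotomy cells and at 2310, 1896 and 1213 CPM in sham cells. S100a11 stood at 858, 921 and 609 CPM in colotomy cells and 954, 915 and 464.5 CPM in sham cells. S100a4 ran the other way in the colotomy library, at 114, 173 and 701.5 CPM, and in the sham library had 0 UMIs in the granule stratum (at most 61.7 CPM), 327 CPM in the second and 284 CPM in the third. The class also held RNA of other cells. Macrophage genes stood in it at 113.7% of their level over the whole colotomy library and 86.5% of that over the sham library. Fibroblast genes stood at 81.2% of their level over the whole colotomy library and 75.0% of that over the sham library, and what this RNA adds to S100a4 and S100a6 was not tested.

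**Figure D2:**
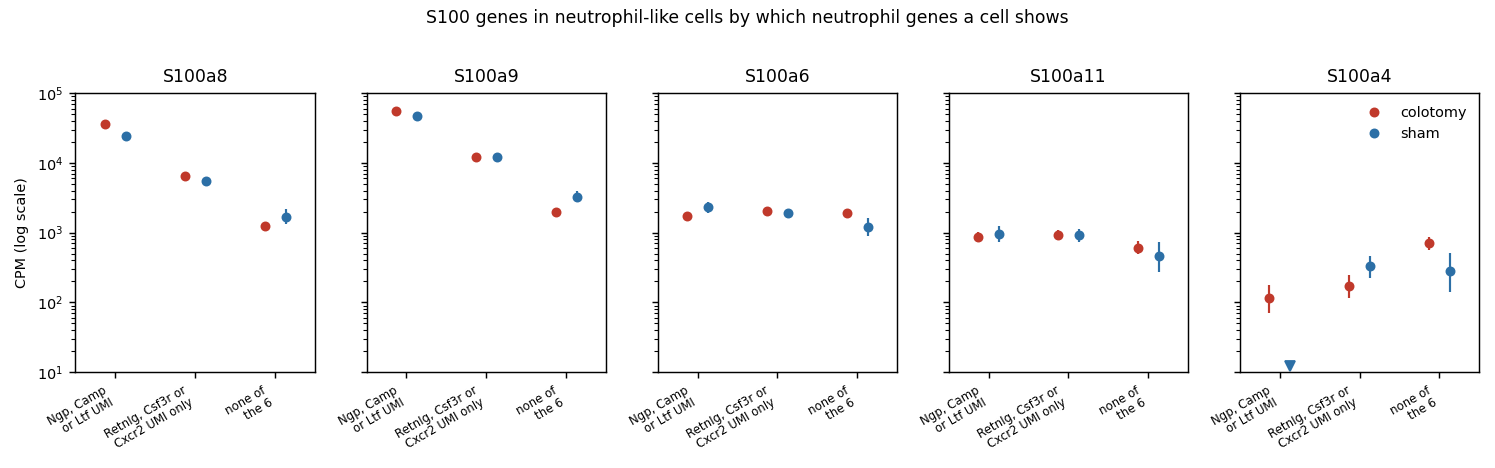
CPM (log scale) of 5 S100 genes in neutrophil-like cells of the colotomy (left, red) and sham (right, blue) libraries, split into cells with a UMI of Ngp, Camp or Ltf, cells with Retnlg, Csf3r or Cxcr2 only, and cells with none of the 6. Points are CPM of summed UMIs, bars are 95% Poisson intervals and the triangle marks 0 UMIs. S100a8 and S100a9 step down over the strata in both libraries, S100a6 and S100a11 stay within 464.5 and 2310 CPM, and S100a4 is lowest in the granule stratum.

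Between the libraries, 3 of 9 members were at least 1.5-fold higher in colotomy neutrophil-like cells and none was lower, against 29.4% of all genes higher and 22% lower. S100a16 stood at 109 CPM in colotomy and 42.0 CPM in sham cells (52 colotomy and 8 sham UMIs, log2 1.37, 0.29 to 2.66). For S100a1 the levels were 83.7 CPM in colotomy and 36.8 CPM in sham cells (40 colotomy and 7 sham UMIs, log2 1.19, 0.01 to 2.59), and for S100a13 192.5 CPM in colotomy and 116 CPM in sham cells (92 colotomy and 22 sham UMIs, log2 0.74, 0.05 to 1.48). All 3 rest on few sham UMIs, and the share of members called is close to that of all genes. S100a6 (1894 CPM in colotomy and 1887 CPM in sham cells) and S100a11 (806 CPM in colotomy and 836 CPM in sham cells) lay under the fold, as did S100a10 (393 CPM in colotomy and 336 CPM in sham cells) and S100a4 (308 CPM in colotomy and 215.5 CPM in sham cells). When the cells without a UMI of any neutrophil marker were left out, 422 colotomy and 103 sham cells remained, S100a8 had a log2 ratio of 0.76 and S100a9 one of 0.41, so that S100a8 passed the fold.

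Outside neutrophil-like cells S100a8 and S100a9 were found at a low level in most classes, beside other neutrophil RNA. In the sham library, dendritic-like and lymphatic endothelial-like cells had 0 S100a8 UMIs, with 1 and 3 UMIs of S100a9. Over all other kept cells, S100a8 stood at 123 CPM in the colotomy library and 5.88 CPM in the sham library, and S100a9 at 216 CPM in colotomy and 9.40 CPM in sham cells. The summed level of 7 genes used as a yardstick for neutrophil RNA (Retnlg, Mmp8, Ltf, Camp, Ngp, Trem1 and Acod1) was 87.6 CPM in colotomy and 3.26 CPM in sham cells of the same cells. As a share of the level in neutrophil-like cells, the median over 15 other colotomy classes was 0.481% for S100a8, 0.514% for S100a9 and 0.407% for the yardstick, and over 19 other sham classes it was 0.0407%, 0.0342% and 0.0359%. These medians were alike within a library, and all 3 were higher in the colotomy library. The yardstick genes were picked for standing under 2% of their neutrophil-like level in other sham classes. Their low sham share is partly set by that choice. Single classes varied more in the sham library, where the UMIs of S100a8 and S100a9 per yardstick UMI ran between 0.25 and 10.3, than in the colotomy library, where they ran between 2.25 and 4.57. Sham smooth muscle-like cells are outside this range. They had 7 S100a8 and 33 S100a9 UMIs with 0 yardstick UMIs, which gives no ratio. Cell types that should lack the genes showed the same: 9% of 100 colotomy and 1.15% of 12738 sham B cell-like cells had a UMI of S100a8 or S100a9, and 11.9% of 59 colotomy and 1.11% of 7780 sham T cell-like cells. In colotomy cells the share was 9.85% in fibroblast-like, 11.7% in goblet-like, 12.4% in epithelial-like and 14.4% in macrophage-like cells, and in sham cells of these 4 classes it was 0.946%, 1.87%, 1.32% and 1.83%. These shares are close to those of B and T cell-like cells and are read as possible free RNA, which was not tested. Sham cells were deeper and yet had the lower shares.

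Barcodes with under 500 UMIs, which were not kept as cells, occurred in the colotomy library alone. They held at least 390 UMIs each, and whether they are cells with little RNA or free RNA was not tested. There S100a8 stood at 1108 CPM, S100a9 at 1962 CPM and the yardstick at 1165 CPM, which is 7.05%, 7.88% and 8.05% of the neutrophil-like level. Per yardstick UMI there were 3.87 UMIs of S100a8 and S100a9 together in kept cells outside the class in the colotomy library and 4.69 in the sham library, beside 2.81 in colotomy and 4.31 in sham neutrophil-like cells. The S100a8 UMIs per S100a9 UMI outside the class were 0.571 in the colotomy library (0.528 to 0.617) and 0.626 in the sham library (0.552 to 0.709). The order of the libraries seen within neutrophil-like cells was not seen outside them.

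A few cells held much of the signal outside the class. In colotomy lymphatic endothelial-like cells S100a8 and S100a9 stood at 792 and 1074 CPM, but 3 of 92 cells held 149 of the 172 UMIs, together with 40 yardstick UMIs, and without them the levels were 160 and 103 CPM. In the unnamed cluster led by the tuft cell genes Sh2d6 and Trpm5, 4 of 133 colotomy cells held 297 of 329 UMIs, together with 63 yardstick UMIs. Without them S100a8 stood at 71.5 and S100a9 at 214.5 CPM, against 1097 and 1745 CPM with them. In epithelial-like cells 18 of 1357 colotomy cells held 435 of 711 UMIs, and 5 of 2344 sham cells held 169 of 195. The 18 colotomy cells held 72 yardstick UMIs, but the 5 sham cells held only 10. Without these cells S100a8 stood at 66.4 CPM in colotomy and 1.43 CPM in sham cells, in place of 165 CPM in colotomy and 14.8 CPM in sham cells. S100a9 likewise stood at 126 CPM in colotomy and 3.22 CPM in sham cells, in place of 318 CPM in colotomy and 19.98 CPM in sham cells. The epithelial-like clusters differed with all cells in. S100a8 stood at 187.5 CPM in colotomy and 1.32 CPM in sham cells (3 UMIs) of the Dmbt1 and Gsdmc2 cluster (log2 7.15). In the Clca4a and Aqp8 cluster it stood at 105 CPM in colotomy and 24.2 CPM in sham cells (log2 2.12). The S100a9 log2 ratios were 6.71 and 2.54 in the same order. In macrophage-like cells 10 of 728 colotomy cells held 221 of 377 UMIs, and 3 of 1909 sham cells held 63 of 104. The 10 colotomy cells held 63 yardstick UMIs and the 3 sham cells held 3. The S100a8 log2 ratios of 3.48 to 4.61 between libraries in the 8 other classes compared are therefore given as possible free RNA, and whether free RNA, paired cells or expression made up these UMIs was not tested.

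**Figure D3:**
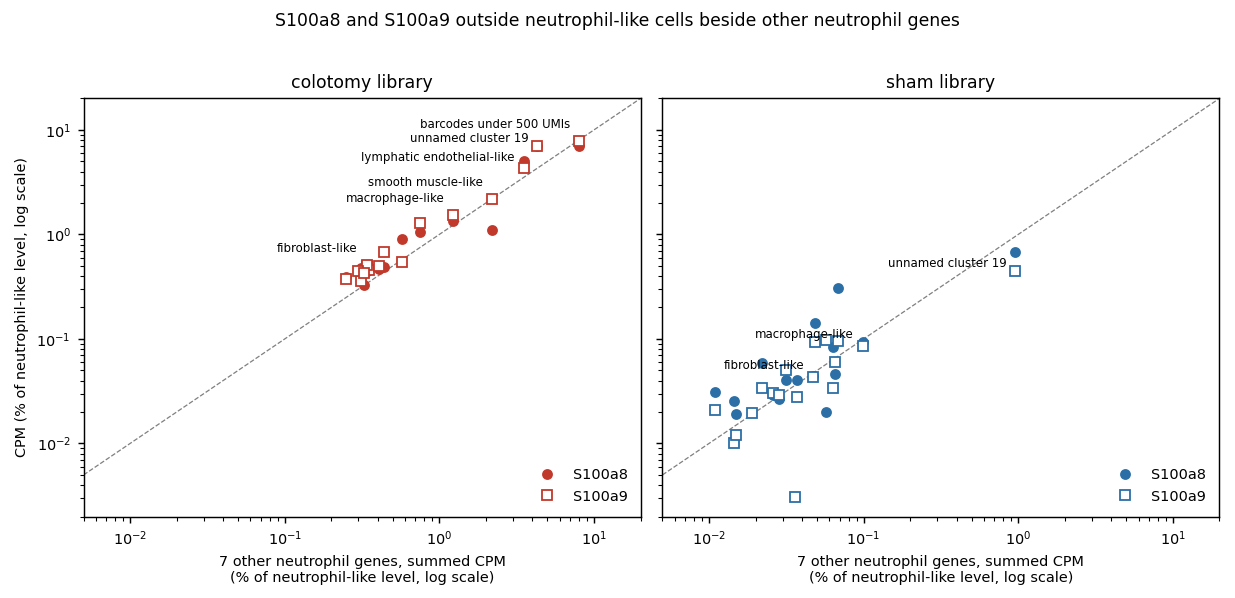
S100a8 (filled circles) and S100a9 (open squares) in each class outside neutrophil-like cells, and in colotomy barcodes under 500 UMIs, as a percentage of their neutrophil-like CPM (y, log scale) against the summed CPM of 7 other neutrophil genes on the same footing (x, log scale), for the colotomy library (left) and the sham library (right). The dashed line is equality. Points lie close to it in the colotomy library and scatter more widely about it in the sham library, at a median of 0.481% and 0.514% in the colotomy library and 0.0407% and 0.0342% in the sham library.

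S100a4, which binds non-muscle myosin, was highest in phagocytes. The unnamed cluster led by Ear2 and Lyz1, with the macrophage markers Csf1r, Cd68 and Mrc1, stood at 1229 CPM in 363 colotomy cells and 1121 CPM in 1526 sham cells. Macrophage-like cells came next, at 652 CPM in 728 colotomy cells (414 UMIs, 591 to 718) and 304.5 CPM in 1909 sham cells (1118 UMIs, 287 to 323). Neutrophil-like cells (308 CPM in colotomy and 215.5 CPM in sham cells) followed, and their interval met those of B cell-like and dendritic-like cells in the colotomy library and of the unnamed Ccl22 and Fscn1 cluster in the sham library. Fibroblast-like cells stood well below these, at 87.8 CPM in the colotomy and 50.3 CPM in the sham library. The level was lowest in goblet-like cells of the colotomy library (18.3 CPM) and in sham B cell-like cells (19.4 CPM).

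S100a6, or calcyclin, which binds Cacybp and Sugt1, was highest in lining and stromal cells. It stood at 2651 CPM in colotomy mesothelial-like cells and 2541 CPM in sham ones, and at 2330 CPM in colotomy and 2806 CPM in sham epithelial-like cells. The level was 2146 CPM in colotomy and 1878 CPM in sham goblet-like cells, and 2050 CPM in colotomy and 2401 CPM in sham fibroblast-like cells. In the colotomy library mesothelial-like and epithelial-like cells did not differ beyond their intervals, nor did goblet-like and fibroblast-like cells, while in the sham library epithelial-like, mesothelial-like and fibroblast-like cells followed each other without overlap. Plasma cell-like cells were lowest in both libraries, at 201 CPM in colotomy and 122 CPM in sham cells.

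Macrophage-like cells were the class where most members stood higher in the colotomy library, but the class held different clusters in the libraries, and most of these gaps were small within them. There 7 of 9 members were at least 1.5-fold higher and none was lower, against 18.3% of all genes higher and 26.6% lower, and with S100a8 and S100a9 set aside it was 5 of 7. S100a6 stood at 1156 CPM in colotomy and 452 CPM in sham cells (734 colotomy and 1659 sham UMIs, 2.56-fold, log2 1.35, 1.23 to 1.48). S100a4 had a log2 ratio of 1.10 (0.93 to 1.26). S100a11 stood at 394 CPM in colotomy and 172 CPM in sham cells (log2 1.2, 0.98 to 1.41). S100a1 had 173 CPM in colotomy and 56.4 CPM in sham cells (log2 1.62, 1.27 to 1.96), although the ratio was -0.11 among cells with a Y-linked and no Xist UMI (55 colotomy and 609 sham cells, with an interval that holds 0). S100a16 had 39.4 CPM in colotomy and 11.4 CPM in sham cells (25 colotomy and 42 sham UMIs, log2 1.78, 1.01 to 2.53). S100a10 (370.1 CPM in colotomy and 300.2 CPM in sham cells, log2 0.30) and S100a13 (183 CPM in colotomy and 157 CPM in sham cells, log2 0.22) lay under the fold. The median log2 ratio of the 7 members without S100a8 and S100a9 was 1.2, and that of all genes with at least 5 UMIs to be expected in each library was -0.13.

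The share of macrophage-like cells that showed these genes pointed the same way once depth was matched. Thinned to 1000 UMIs, 59.0% of 188 colotomy cells and 28.6% of 1545 sham cells had an S100a6 UMI, and 35.6% of colotomy and 19% of sham cells an S100a4 UMI. Without thinning the shares were 44.0% of colotomy and 39.9% of sham cells for S100a6 and 27.5% of colotomy and 24.9% of sham cells for S100a4. In sham B cell-like cells, which serve as background, 12.8% of 6437 had an S100a6 UMI at that depth and 1.52% an S100a4 UMI. Fibroblast genes, read as RNA of other cells, stood in macrophage-like cells at 17.4% of their colotomy library level and 8.53% of their sham library level. Haemoglobin genes went the same way (67.0% in colotomy and 41.5% in sham cells). Immunoglobulin, goblet, epithelial and neutrophil genes went the other way. The median of these 6 gene sets was 18.9% in colotomy and 24.6% in sham cells. After subtracting free RNA with the profile of all kept cells, the log2 ratios were 1.88 for S100a6, 1.17 for S100a4, 1.58 for S100a11 and 1.84 for S100a1. Median depth was 721.5 UMIs in colotomy and 1590 UMIs in sham macrophage-like cells.

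The Ear2 and Lyz1 cluster, which shares macrophage markers, did not show these gaps. S100a4 stood in it at 1229 CPM in colotomy and 1121 CPM in sham cells (log2 0.13, -0.03 to 0.29) and S100a6 at 1739 CPM in colotomy and 1570 CPM in sham cells (log2 0.15). S100a10 had 638 CPM in colotomy and 668 CPM in sham cells, and S100a11 had 473 CPM in colotomy and 419 CPM in sham cells. S100a16 differed there as well, at 69.0 CPM in colotomy and 12.3 CPM in sham cells (log2 2.49). At a lower clustering resolution of 0.5 the macrophage-like class grew to 1190 colotomy and 3297 sham cells. Its log2 ratios were then 0.32 for S100a4, 0.47 for S100a6 and 0.57 for S100a11, all under the fold, so that 4 members were called in place of 7. The gap in S100a4, S100a6 and S100a11 thus depends on where the boundary of the macrophage-like class is drawn.

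At a resolution of 2, again without S100 genes, the class came apart. A cluster led by Mmp12, Gpnmb and Spp1 held 326 of the 728 colotomy cells of the class and 78 of its 1909 sham cells, and a cluster led by Folr2, Cbr2 and Cd163 held 225 of the colotomy and 1680 of the sham cells. The Mmp12, Gpnmb and Spp1 cluster had the higher level of S100a4, S100a6, S100a11 and S100a1 in both libraries. S100a6 stood in it at 1598 CPM in colotomy and 1085 CPM in sham cells (log2 0.56, 0.32 to 0.80), and in the Folr2, Cbr2 and Cd163 cluster at 431 CPM in colotomy and 339 CPM in sham cells (log2 0.34, -0.01 to 0.68). S100a4 stood at 851 CPM in colotomy and 669 CPM in sham cells of the first (log2 0.35, 0.04 to 0.66), and at 215 CPM in both libraries in the second (log2 0.01, -0.51 to 0.48). S100a1 had 297 CPM in colotomy and 263 CPM in sham cells of the first (log2 0.17), and 45.4 CPM in colotomy and 44.0 CPM in sham cells of the second (log2 0.04). For S100a11 the log2 ratios were 0.16 in the first, at 512 CPM in colotomy and 458 CPM in sham cells, and 0.60 in the second, at 210 CPM in colotomy and 139 CPM in sham cells, which is just past the fold. The class ratios of these 4 members thus move with the mix of the clusters, and 7 of the 8 ratios within them were under the fold. S100a16 was past the fold in both, but on 18 colotomy UMIs and 1 sham UMI in the first and on 4 colotomy and 36 sham UMIs in the second. This split was chosen after seeing the data.

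**Figure D4:**
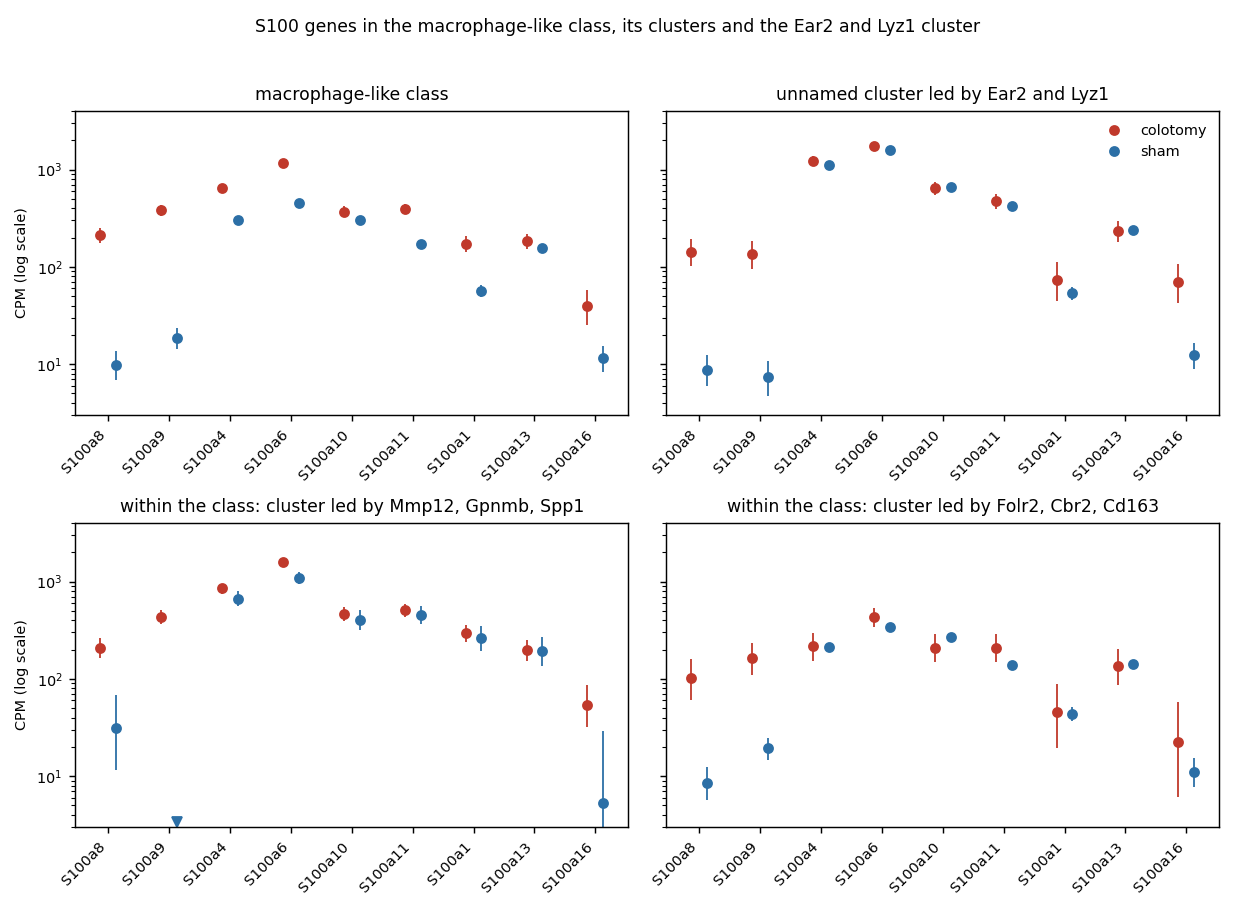
CPM (log scale) of the 9 S100 genes in the macrophage-like class and the unnamed cluster led by Ear2 and Lyz1 (top), and in 2 clusters of the class at resolution 2 (bottom), with colotomy cells in red to the left of sham cells in blue, bars for 95% Poisson intervals and a triangle for 0 UMIs. S100a6 stands at 1156 CPM in colotomy and 452 CPM in sham cells of the class, at 1598 CPM in colotomy and 1085 CPM in sham cells of the Mmp12, Gpnmb and Spp1 cluster, and at 431 CPM in colotomy and 339 CPM in sham cells of the Folr2, Cbr2 and Cd163 cluster.

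Fibroblast-like cells, the largest class of the colotomy library, differed little in most members. Of the 9 members, 3 were at least 1.5-fold higher and none was lower, against 17.1% of all genes higher and 19% lower, and 2 of the 3 were S100a8 and S100a9. The third was S100a4, at 87.8 CPM in colotomy and 50.3 CPM in sham cells (253 colotomy and 447 sham UMIs, 1.75-fold, log2 0.80, 0.58 to 1.03). By cluster, S100a4 had 89.4 CPM in colotomy and 48.4 CPM in sham cells of the one led by Inmt and Gdf10. In the one led by Ptn and Timp1 it had 79.6 CPM in colotomy and 54.7 CPM in sham cells, a log2 ratio of 0.54 that lies under the fold and has an interval that holds 0 (-0.11 to 1.25). In the one led by Pi16 it had 100.3 CPM in colotomy and 50.7 CPM in sham cells. In that order the clusters held 324, 1870 and 1329 colotomy cells and 1383, 211 and 3481 sham cells. After thinning to 1000 UMIs, 9.09% of 704 colotomy and 4.05% of 4168 sham fibroblast-like cells had an S100a4 UMI, while the shares without thinning were 5.71% of colotomy and 5.67% of sham cells. With free RNA subtracted, 1 member passed the fold in this class. Macrophage markers were higher in fibroblast-like cells too, 7 of 9 measured and none lower. Their summed level was 462 CPM in colotomy and 235 CPM in sham cells, and their part in the S100a4 level was not tested.

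S100a6, S100a10, S100a11 and S100a13 stood slightly lower in colotomy fibroblast-like cells, with log2 ratios of -0.23, -0.10, -0.15 and -0.22. S100a6 differed among the clusters more than between the libraries. It stood at 1028 CPM in colotomy and 1584 CPM in sham cells of the Inmt and Gdf10 cluster. In the Ptn and Timp1 cluster it stood at 1993 CPM in colotomy and 2099 CPM in sham cells, and in the Pi16 cluster at 2413 CPM in colotomy and 2732 CPM in sham cells. S100a10 kept the same order of clusters, with 391, 691 and 941 CPM in colotomy cells and 443, 666 and 954 CPM in sham cells. S100a16 stood at 343 CPM in colotomy and 247 CPM in sham cells over the class (log2 0.47, 0.36 to 0.58), which is under the fold. Within the 3 clusters its log2 ratios were 0.69, 0.60 and 0.69, each larger than over the class and past the fold.

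S100a10, the partner of annexin A2, and S100a11, the partner of annexin A1, are membrane-linked members with a broad level across classes. S100a10 was highest in fibroblast-like cells, at 750.1 CPM in colotomy and 806 CPM in sham cells, followed in the sham library by the Ear2 and Lyz1 cluster (668 CPM) and by epithelial-like (595 CPM) and mesothelial-like cells (575.5 CPM), whose intervals overlap. S100a11 was highest in neutrophil-like cells (806 CPM in colotomy and 836 CPM in sham cells), whose intervals met those of dendritic-like cells in the colotomy library (668 CPM) and of fibroblast-like cells in the sham library (734 CPM). In the colotomy library plasma cell-like cells had the lowest level of both, at 123 CPM of S100a10 and 94.5 CPM of S100a11.

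Plasma cell-like cells were the class with the most lower members. Of the 9 members, 5 were at least 1.5-fold higher and 3 lower, against 20.4% of all genes higher and 22.2% lower. S100a10 stood at 123 CPM in 386 colotomy cells and 307 CPM in 856 sham cells (52 colotomy and 790 sham UMIs, log2 -1.32, -1.76 to -0.92), and it was at least 1.5-fold lower in all 14 alternatives run. S100a11 stood at 94.5 CPM in colotomy and 145 CPM in sham cells (log2 -0.61) and S100a13 at 75.6 CPM in colotomy and 125 CPM in sham cells (log2 -0.73). S100a4 went the other way, at 109 CPM in colotomy and 20.2 CPM in sham cells (46 colotomy and 52 sham UMIs, log2 2.43, 1.82 to 3.03). So did S100a6, at 201 CPM in colotomy and 122 CPM in sham cells (log2 0.72, 0.36 to 1.07). S100a16 was also called, at 14.2 CPM in colotomy and 8.56 CPM in sham cells, but on 6 colotomy and 22 sham UMIs and with an interval that holds 0 (log2 0.73, -0.86 to 2.08). Macrophage markers were higher in these cells too, 7 of 7 measured, with a summed level of 378 CPM in colotomy and 89.1 CPM in sham cells, and their part in the S100a4 and S100a6 levels was not tested.

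In B cell-like cells 3 of 9 members were higher and none lower, against 27% of all genes higher and 10.1% lower. Beside S100a8 and S100a9 this was S100a4, at 299 CPM in 100 colotomy cells and 19.4 CPM in 12738 sham cells (20 colotomy and 281 sham UMIs, log2 3.94, 3.21 to 4.6). The 20 UMIs lay in 7% of the colotomy cells, and among cells with at least 1000 UMIs and 500 genes the log2 ratio was -0.57, with 56 colotomy cells. Macrophage markers stood higher in the same cells, 5 of 9, with a summed level of 329 CPM in colotomy and 116 CPM in sham cells, while 5 of 9 B cell markers stood lower. Their part in the S100a4 level was not tested. S100a16 had 0 UMIs in the colotomy cells, at most 55.1 CPM, and 12.0 CPM in the sham cells.

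S100a16, a widely expressed member of less settled function, stood higher in 6 of 9 classes, the most apart from the calprotectin genes. Its log2 ratio was above 0 in all 8 classes where it had one. Of the 6 calls, that in neutrophil-like cells rests on 8 sham UMIs. The call in plasma cell-like cells rests on 6 colotomy and 22 sham UMIs, with an interval that holds 0. What free RNA adds to S100a16 in classes where it is low was not tested. Its highest level was in lymphatic endothelial-like cells, at 867.5 CPM in 92 colotomy cells (688 to 1080) and 276 CPM in 370 sham cells (239 to 317). In the colotomy library goblet-like (409 CPM) and vascular endothelial-like cells (408 CPM) followed and did not differ from each other, and in the sham library fibroblast-like cells (247 CPM) had an interval that met the first.

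Epithelial-like cells had 3 of 9 members higher and 1 lower, against 24.3% of all genes higher and 16% lower. S100a16 stood at 254 CPM in colotomy and 102 CPM in sham cells (374 colotomy and 570 sham UMIs, 2.5-fold, log2 1.32, 1.13 to 1.51). The class holds a cluster led by Dmbt1 and Gsdmc2 (975 colotomy and 755 sham cells) and another led by Clca4a, Aqp8 and Krt20 (362 colotomy and 1573 sham cells). The gap was present in both, at 270.2 CPM in colotomy and 131 CPM in sham cells (log2 1.04) and at 199 CPM in colotomy and 80.7 CPM in sham cells (log2 1.30). After thinning to 1000 UMIs, 21.8% of 537 colotomy and 6.74% of 2078 sham cells had an S100a16 UMI, and the shares without thinning were 21.5% of colotomy and 15.5% of sham cells. It was at least 1.5-fold higher in all 15 alternatives run, with log2 ratios between 1.03 and 1.90.

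S100a13, which takes part in the release of Fgf1 and Il1a, was the lower member, at 117 CPM in colotomy and 183 CPM in sham epithelial-like cells (172 colotomy and 1026 sham UMIs, log2 -0.65, -0.89 to -0.41). Within the clusters it did not differ beyond its intervals, at 75.4 CPM in colotomy and 83.4 CPM in sham cells of the Dmbt1 and Gsdmc2 cluster (log2 -0.15). It stood at 241 CPM in colotomy and 252 CPM in sham cells of the Clca4a and Aqp8 cluster (log2 -0.07). The class ratio thus moved with the share of the Clca4a and Aqp8 cluster, which was the larger in the sham library. S100a6 behaved alike, with log2 -0.27 over the class (2330 CPM in colotomy and 2806 CPM in sham cells). Within the clusters it had 1936 CPM in colotomy and 2001 CPM in sham cells of the Dmbt1 and Gsdmc2 cluster and 3655 CPM in colotomy and 3383 CPM in sham cells of the Clca4a and Aqp8 cluster. S100a10 stood at 554 CPM in colotomy and 595 CPM in sham cells over the class (log2 -0.10) and at 1085 CPM in colotomy and 761 CPM in sham cells of the Clca4a and Aqp8 cluster (log2 0.51).

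Goblet-like cells had 3 of 9 members higher and none lower, against 16.2% of all genes higher and 13.5% lower. Apart from S100a8 and S100a9 this was S100a16, at 409 CPM in 1133 colotomy cells and 207 CPM in 962 sham cells (log2 0.99, 0.83 to 1.14). Thinned to 1000 UMIs, 34.1% of 639 colotomy and 16.9% of 842 sham cells had an S100a16 UMI. Without thinning the shares were 38.1% of colotomy and 45.6% of sham cells at median depths of 1096 colotomy and 3298.5 sham UMIs. S100a1 stood at 150 CPM in colotomy and 209 CPM in sham cells (log2 -0.48, -0.70 to -0.26). S100a6 stood at 2146 CPM in colotomy and 1878 CPM in sham cells, and S100a13 at 203 CPM in colotomy and 205 CPM in sham cells, all under the fold.

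Vascular endothelial-like cells had 4 of 9 members higher and none lower, against 24% of all genes higher and 20.2% lower. S100a16 stood at 408 CPM in 176 colotomy cells and 160 CPM in 1182 sham cells (58 colotomy and 298 sham UMIs, log2 1.35, 0.92 to 1.76). S100a1, known for its part in calcium handling of muscle, stood at 134 CPM in colotomy and 75.2 CPM in sham cells (19 colotomy and 140 sham UMIs, log2 0.83, 0.06 to 1.53). Among cells with a Y-linked and no Xist UMI its ratio was -0.68, on 20 colotomy and 309 sham cells and with an interval that holds 0. S100a6 stood at 999 CPM in colotomy and 682 CPM in sham cells (log2 0.55, 0.29 to 0.80), just under the fold. In mesothelial-like cells S100a8 and S100a9 were the only members past the fold, so that 2 of 9 were higher and none lower, against 21.4% of all genes higher and 23% lower. The other 7 lay between log2 -0.23 and 0.55.

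S100a1 was highest in the Sh2d6 and Trpm5 cluster (233 CPM in colotomy and 259 CPM in sham cells). Its interval met those of mesothelial-like (173 CPM in colotomy and 198 CPM in sham cells) and goblet-like cells (150 CPM in colotomy and 209 CPM in sham cells). It had 0 UMIs in colotomy lymphatic endothelial-like cells, at most 40.0 CPM, and 40.6 CPM in sham ones. S100a13 was high in fibroblast-like (288 CPM in colotomy and 335.5 CPM in sham cells) and vascular endothelial-like cells (274 CPM in colotomy and 261.5 CPM in sham cells). The Sh2d6 and Trpm5 cluster ranked first in the colotomy library, at 302 CPM with an interval that met theirs, and had 133 CPM in the sham library.

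**Figure D5:**
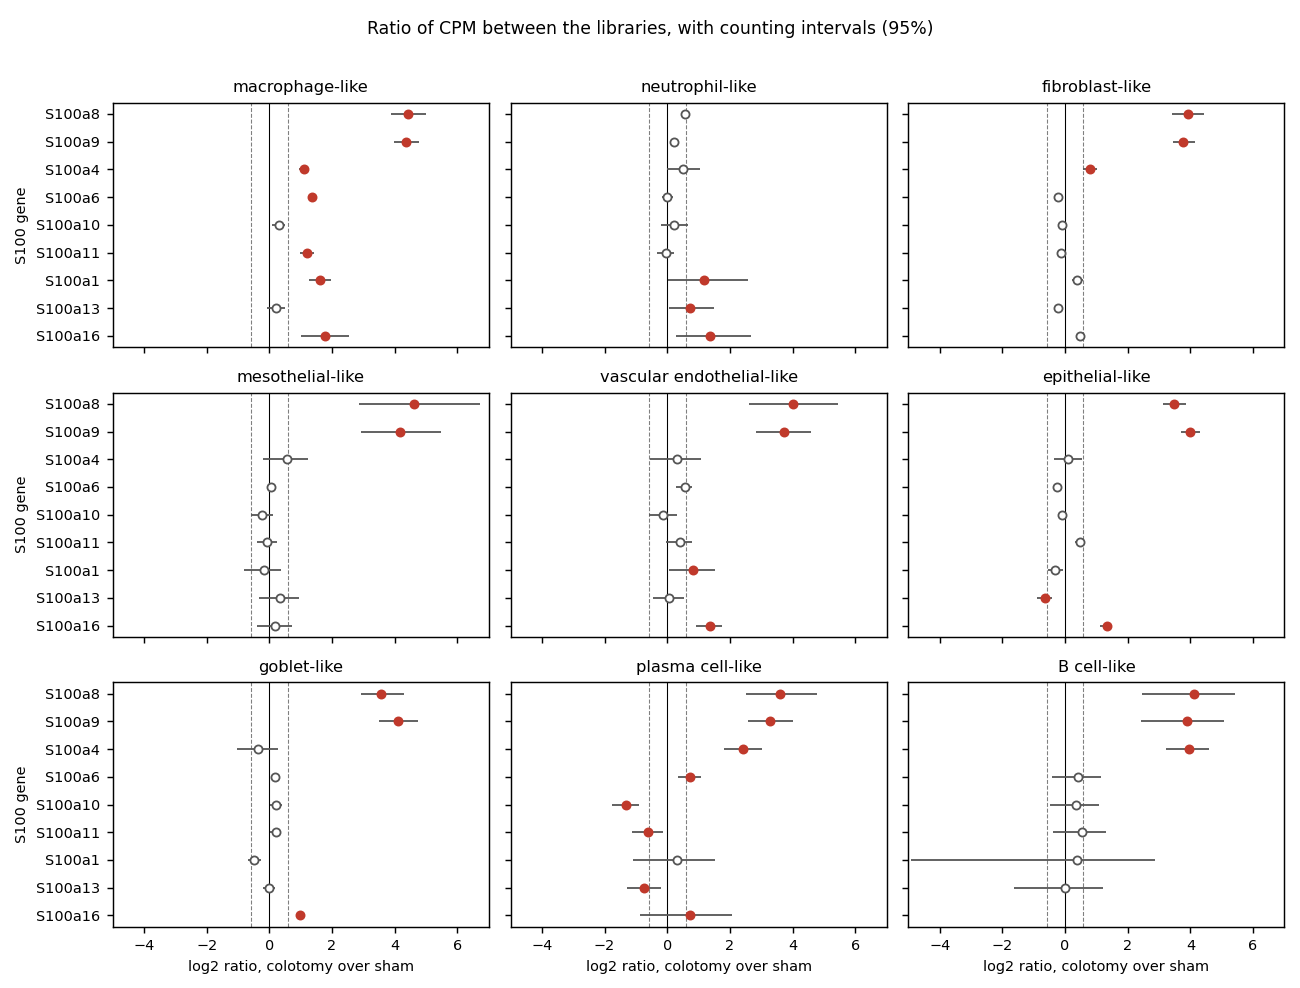
Log2 ratio of CPM, colotomy over sham, of the 9 S100 genes in the 9 classes compared, with 95% counting intervals. Filled points are at least 1.5-fold apart (dashed lines) on at least 10 UMIs and open points are not. S100a8 and S100a9 lie between 3.29 and 4.61 in the 8 classes other than neutrophil-like cells, 5 further members pass the fold in macrophage-like cells, and S100a10, S100a11 and S100a13 lie below in plasma cell-like cells.

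Partner genes are given as whole lists, whatever their members did. Their counts are read against the shares of all genes given above for each class. Of 8 annexins, 6 were at least 1.5-fold higher in colotomy macrophage-like cells and none was lower, with a median log2 ratio of 1.35, and the same counts held in neutrophil-like cells, against 18.3% and 29.4% of all genes higher in these classes. The annexins were not read within the clusters of the macrophage-like class. Anxa2, which S100A10 clamps into a tetramer at the plasma membrane, stood at 696 CPM in colotomy and 221 CPM in sham macrophage-like cells (log2 1.65). It stood at 694 CPM in colotomy and 328 CPM in sham epithelial-like cells (log2 1.08) and 871.5 CPM in colotomy and 509 CPM in sham fibroblast-like cells (log2 0.78). It was higher in 7 of 9 classes, whereas S100a10 was higher in none of them. Anxa1 stood at 310.2 CPM in colotomy and 40.3 CPM in sham macrophage-like cells (log2 2.94) and 575.5 CPM in colotomy and 126 CPM in sham neutrophil-like cells (log2 2.19). In fibroblast-like cells 1 annexin was higher and none lower, in mesothelial-like cells likewise, in goblet-like cells 3 and none, in vascular endothelial-like cells 5 and none, in epithelial-like cells 5 and 1, and in plasma cell-like and B cell-like cells 4 and 2 each.

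Of the receptors of released S100 proteins, Cd14, which helps TLR4, was higher in all 9 classes, at 257 CPM in colotomy and 52.3 CPM in sham macrophage-like cells (log2 2.30) and at 538 CPM in colotomy and 142 CPM in sham neutrophil-like cells (log2 1.92). The Cd14 call in B cell-like cells rested on 1 colotomy UMI, and in the other classes apart from these 2 it stood at 21.3 to 56.3 CPM in colotomy and 0.778 to 14.4 CPM in sham cells. Neutrophil RNA outside neutrophil-like cells was likewise higher in the colotomy library, and its part in Cd14 was not tested. Tlr4 stood at 33.1 CPM in colotomy and 18.8 CPM in sham macrophage-like cells (log2 0.82). Ager, the gene of RAGE, was near its floor throughout, with 12.6 CPM in its highest colotomy class and 7.01 CPM in its highest sham class. Over the list, 4 of 8 measured receptors were higher in macrophage-like cells and none lower. None was lower either in 6 further classes, where the higher ones were 4 of 6 in neutrophil-like, 3 of 9 in fibroblast-like, 4 of 9 in B cell-like, 4 of 6 in plasma cell-like, 2 of 7 in mesothelial-like and 2 of 8 in vascular endothelial-like cells. The share in vascular endothelial-like cells is close to the 24% of all genes there. In epithelial-like cells 1 was higher and 2 lower of 8, and in goblet-like cells 2 and 2 of 8.

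Of the intracellular partners and plasminogen activators, 6 of 11 were higher in macrophage-like cells and 1 was lower, and 3 of 10 higher in fibroblast-like cells and none lower, against 18.3% of all genes higher in macrophage-like and 17.1% in fibroblast-like cells. The 3 in fibroblast-like cells were Tpm1, at 321 CPM in colotomy and 149 CPM in sham cells, and 2 plasminogen activator genes. Of these Plat stood at 268.5 CPM in colotomy and 112 CPM in sham cells and Plau at 42.0 CPM in colotomy and 15.6 CPM in sham cells. Myh9, the myosin bound by S100A4, stood at 394 CPM in colotomy and 412 CPM in sham macrophage-like cells, where S100a4 was higher, and Ahnak, which binds the S100A10 complex, at 964 CPM in colotomy and 664 CPM in sham cells. The counts of higher and lower partners were 3 and 1 of 9 in neutrophil-like, and 4 and 1 of 10 in epithelial-like and in goblet-like cells. They were 1 and 2 of 10 in mesothelial-like, 1 and 3 of 6 in plasma cell-like, 1 and 0 of 9 in vascular endothelial-like and 2 and 3 of 10 in B cell-like cells. In the B cell-like class 27% of all genes were higher and 10.1% lower.

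Across the 28 points given by named classes and libraries, S100a8 and S100a9 had the most alike levels of any pair of members (Pearson r 0.99 on log2(CPM + 10)), and Retnlg and Il1b were next to both. Lyz2 (0.85), Clec4a2 (0.84) and Fcer1g (0.83) were most like S100a4, and Mgst1 (0.92), Dstn (0.89) and Ptov1 (0.88) most like S100a6. S100a10 was most like Pmp22 (0.84), Rhoc (0.81) and Emp1 (0.78), and the values for S100a11 were 0.86 with Fam102b and 0.86 with Anxa1. The values for S100a1 were 0.89 with Hist1h2bc, 0.86 with Pla2g4a and 0.84 with Lzts2, for S100a13 0.77 with Pmepa1, 0.77 with Ext1 and 0.76 with Col15a1, and for S100a16 0.92 with Rgmb, Nckap1 and Yes1. Between other neighbours on the chromosome, S100a1 and S100a13 had r 0.61, S100a13 and S100a16 r 0.68, and S100a4 and S100a16 r -0.19. S100a4 and S100a6 had r 0.04, S100a6 and S100a8 r 0.37, S100a9 and S100a11 r 0.49, and S100a10 and S100a11 r 0.63. The points share libraries, depth and free RNA, so these values describe the levels and carry no test.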

How the data were processed

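Raw UMI counts per gene and barcode (unit: counts) were deposited by the authors, the file headers name Cell Ranger 6.0.0, and the submitters' processing notes list STAR 2.5.1b, the build mm10 and, with no role given, Seurat and Space Ranger. Settings of cell calling and counting by strand are not given in the sources used here. Hashtag 1 marks bowel and hashtag 2 mesenteric adipose tissue in a table of the submitters. No column of per-sample values was left unused (0).

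Barcodes with at least 500 gene UMIs, 300 genes and under 20% mitochondrial UMIs were kept. Scrublet called 0 doublets in either library, which for this many cells means that it did not work, and 671 colotomy and 919 sham barcodes positive for both hashtags were kept. Clustering used both libraries at once and left out the S100 genes (scanpy 1.11.5, 2000 variable genes, 30 components, 15 neighbours, Leiden resolution 1 with igraph 0.11.9). A cluster took a class name from 24 marker lists where at least 3 markers were found in at least 10% of its cells at 2 times the level of the other clusters. UMIs summed over a class in a library were divided by all its UMIs there to give CPM, which takes no account of gene length. Intervals (95%, scipy 1.17.1) are exact Poisson for CPM, exact binomial for shares and exact conditional binomial for ratios, and cover counting error only. In ratios a count of 0 was set to 3 counts, and the upper limits given for a level at 0 are Poisson limits. A gene was called when at least 1.5-fold apart on at least 10 UMIs over both libraries, and no p-value is given. The ratios were tested on simulated data. Free RNA was read from 7 neutrophil genes that stood at under 2% of their neutrophil-like level in other sham classes, chosen after seeing the data.

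The rule for named genes was all 9 members, other S100 genes with at least 100 UMIs, the lists of receptors, annexins and partners, and the 3 genes most like each member, of which 1 is not reported here. Members and lists were chosen with earlier results of these data known. Alternatives varied the cell filter, resolution, clustering genes, doublets, weights, scaling, free RNA, sex-linked genes, hashtags, depth and clusters. Positions are from GENCODE vM21 and promoters from RefSeq, GRCm38.p6.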

Additional observations from a re-analysis of the deposited data

Results flagged for a closer look

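S100a11 stood on opposite sides in 2 classes between the libraries, with a log2 ratio, colotomy over sham, of 1.2 in macrophage-like cells and of -0.61 in plasma cell-like cells. S100a13 did so as well, at 0.74 in neutrophil-like cells against -0.65 in epithelial-like and -0.73 in plasma cell-like cells. With 1 library per group, the difference was not tested in any of these pairs. The S100a13 value in epithelial-like cells was not present within either of its main clusters, and the S100a11 value in macrophage-like cells was smaller within both clusters of that class at resolution 2 (0.16 and 0.60).

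Barcodes under the minimum of 500 UMIs, which enter no comparison, held S100a8 at 1108 CPM and S100a9 at 1962 CPM in the colotomy library. The sham library had no such barcode, since its lowest barcode held 613 UMIs against 390 in the colotomy library.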

How the results depend on the processing

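Of 1048 member values recomputed under alternatives, 755 were counted as staying with the value reported, 282 as moved and 11 as called ratios that changed sign. Ratios under the fold that changed sign are not among these 11. For one, S100a10 kept its sign in 11 of 15 alternatives in epithelial-like cells and in 9 of 13 in vascular endothelial-like cells. The number of members at least 1.5-fold apart changed by over 1.5 times in these cases. With cells of 1000 UMIs and 500 genes or more it was 6 in B cell-like (3 reported) and 4 in mesothelial-like cells (2 reported). At resolution 0.5 it was 4 in macrophage-like (7 reported) and 5 in neutrophil-like cells (3 reported). With S100 genes allowed in the clustering it was 5 in neutrophil-like and 5 in plasma cell-like cells (8 reported), and by the mean over cells 5 in neutrophil-like cells. With free RNA subtracted it was 1 in fibroblast-like cells (3 reported). Among cells with a Y-linked and no Xist UMI it was 4 in plasma cell-like and 2 in vascular endothelial-like cells (4 reported). Under hashtag 1 alone it was 4 in macrophage-like and 3 in plasma cell-like cells, and under hashtag 2 alone 5 in fibroblast-like and 3 in plasma cell-like cells. Thinned to 500 UMIs it was 5 in B cell-like and 5 in goblet-like cells (3 reported). The causes were not tested.

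The called log2 ratios that changed sign were S100a4 in B cell-like cells (-0.57, deeper cells), S100a16 in neutrophil-like cells (-0.0703, resolution 0.5) and S100a8 in epithelial-like cells (-0.91, free RNA subtracted). Y-linked cells gave -0.11 for S100a1 in macrophage-like cells (55 colotomy and 609 sham cells), -0.41 for S100a9 and 0.10 for S100a13 in plasma cell-like cells, and -0.68 for S100a1 in vascular endothelial-like cells. Hashtag 1 alone gave -1.76 for S100a8 and -0.79 for S100a9 in epithelial-like cells (127 colotomy and 117 sham cells) and -0.20 for S100a16 in plasma cell-like cells, and hashtag 2 alone gave 1.07 for S100a13 in plasma cell-like cells. Among alternatives of values reported, S100a4 in macrophage-like cells ran between 0.32 and 1.87, past the fold in 13 of 14, S100a6 there between 0.47 and 1.89, and S100a4 in fibroblast-like cells between 0.31 and 1.63, past the fold in 13 of 15. S100a16 in goblet-like cells passed in all 14, between 0.60 and 1.24.

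The sham library is deeper, and 1 library per group leaves animals, sex mix, digestion and operation not told apart. Hashtag calls rest on components at most 0.975 SD apart, so tissue splits are weak. The planned free RNA profile of barcodes under the UMI minimum was not run, since the sham library holds none, and the profile of all kept cells, chosen after seeing the data, took its place. No paired analysis was possible because each group has 1 library.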

Other observations

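Other S100 family genes outside the 9 described above were read in the same cell classes. S100g, which encodes the vitamin D-dependent calcium-binding protein calbindin-D9k, stood at 73.4 CPM in epithelial-like cells of the colotomy library (108 UMIs) and at 172.2 CPM in those of the sham library (965 UMIs), a log2 ratio of -1.23 with a counting interval of -1.53 to -0.94. In cluster 2, led by Clca4a and Aqp8, S100g stood at 177.1 CPM in the colotomy library and 279.1 CPM in the sham library. In cluster 0, led by Dmbt1 and Gsdmc2, it stood at 40.4 CPM in the colotomy library and 18.5 CPM in the sham library, so its direction was not the same in both clusters. Cluster 2 held 362 colotomy cells and 1573 sham cells, and cluster 0 held 975 colotomy cells and 755 sham cells, and the part of this unequal mix in the class ratio was not tested further. S100a14 stood at 48.2 CPM in colotomy epithelial-like cells and 35.0 CPM in sham epithelial-like cells, under the 1.5-fold threshold. S100b had its highest level in an unnamed cluster led by Adamdec1, at 55.8 CPM in its sham cells.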
